A study of Mus musculus with 36 samples.

Results

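The genes described here are the 48 genes, of 24421 listed, whose symbol names a Wnt ligand, a Frizzled receptor, the co-receptors Lrp5 and Lrp6, an R-spondin, an Lgr receptor or a secreted antagonist (Dickkopf, Sfrp and Wif1 genes). They were taken by symbol alone, with no use of any measured value. They comprised 19 Wnt ligands, 10 Frizzled receptors, 2 Lrp co-receptors, 4 R-spondins, 3 Lgr receptors, 5 Dickkopf family genes, and 4 Sfrp genes with Wif1.

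Their levels were read by RNA-seq in the cerebellum and hippocampus of 18 adult C57Bl/6 mice, each of which gave both tissues, in a study of the dosage of Pogz, a gene for a chromatin-associated zinc finger protein. Control mice (n = 6) carried 2 floxed Pogz alleles and no Cre (Pogz fl/fl), cKO+/- mice (n = 6) carried NesCre/+ with Pogz fl/+, and cKO-/- mice (n = 6) carried NesCre/+ with Pogz fl/fl. Each genotype held 3 males and 3 females. Cre was driven by Nestin, so that the deletion was restricted to the nervous system, and cells of other origin, such as those of vessels and the leptomeninges, were expected to keep their alleles. No control carried Cre, so the presence of Cre and the loss of an allele cannot be told apart between controls and mutants.

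Wnt ligands are secreted, lipid-modified glycoproteins that bind a Frizzled receptor together with Lrp5 or Lrp6. In the canonical pathway this stabilises β-catenin, which then acts with TCF/LEF factors on target genes, while other ligands, such as Wnt5a, act mainly on cell polarity and calcium. R-spondins bind Lgr receptors and keep Frizzled receptors at the cell surface, and Dickkopf, Sfrp and Wif1 proteins hold Wnt signalling back, by binding Lrp co-receptors or the ligands. In the brain the pathway is known for patterning, for synapse formation, in the cerebellum through Wnt7a of granule cells, and for neurogenesis in the adult dentate gyrus.

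Depth was 21421850 to 32544929 gene counts per cerebellar library (median 28276808) and 17609321 to 45544188 per hippocampal library (median 35549038). Pogz itself fell in both tissues, by 0.30 on the log2 scale per allele lost in the cerebellum (SE 0.046, adjusted p = 0.000356) and by 0.28 in the hippocampus (SE 0.020, adjusted p = 1.79e-07; edgeR quasi-likelihood test). Only some exons of Pogz were floxed, whereas the counts cover the whole gene, so these values do not measure how much intact Pogz was lost. In the study, immunostaining and western blots showed the protein to be efficiently deleted in the brain. The cerebellar granule cell gene Gabra6 had a mean of 982 CPM (gene counts scaled for library size) in control cerebellum and 8.47 CPM in control hippocampus, and the pyramidal cell gene Neurod6 had 8.04 and 202 CPM, in keeping with the tissue labels. The control hippocampal library of Sample_1129 had the highest sum of 6 granule cell markers, at 316 CPM against 49.9 to 104 CPM in the other hippocampal libraries. The hippocampal library of cKO-/- Sample_1160 was left out of the hippocampal fits, an outlier sample having been excluded in the study, and is given beside the results. Choroid plexus markers (8 genes, among them Ttr) summed to over 1000 CPM in 3 cerebellar and 5 hippocampal libraries, and the results are given with and without these. In bulk tissue, fewer cells of a type and less RNA per cell cannot be told apart.

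To show the sequence context of the genes that moved most with Pogz dosage and had an entry among the RefSeq promoters (GRCm38.p6), the 250 bases before the start of transcription are printed for Lgr6 and Wif1 of the cerebellar results and for Rspo1, Wnt16 and Wnt11 of the hippocampal results. Capitals mark a core letter sequence of TCF/LEF factors, given as CTTTGAA or CTTTGAT or CTTTGTA or CTTTGTT and searched on both strands, and lower case is all other sequence.
Lgr6, chr1:135105277-135105526, strand minus: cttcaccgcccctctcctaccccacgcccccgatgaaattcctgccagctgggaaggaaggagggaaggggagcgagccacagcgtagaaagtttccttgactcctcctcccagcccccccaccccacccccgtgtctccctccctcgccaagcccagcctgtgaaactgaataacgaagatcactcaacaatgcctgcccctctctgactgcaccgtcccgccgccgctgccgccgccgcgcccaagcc
Wif1, chr10:121033754-121034003, strand plus: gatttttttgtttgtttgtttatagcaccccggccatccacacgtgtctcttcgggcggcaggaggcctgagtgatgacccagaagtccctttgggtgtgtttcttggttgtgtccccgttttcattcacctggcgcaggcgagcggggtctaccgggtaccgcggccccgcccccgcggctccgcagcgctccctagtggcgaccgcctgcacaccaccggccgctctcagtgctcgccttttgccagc
Rspo1, chr4:124986180-124986429, strand plus: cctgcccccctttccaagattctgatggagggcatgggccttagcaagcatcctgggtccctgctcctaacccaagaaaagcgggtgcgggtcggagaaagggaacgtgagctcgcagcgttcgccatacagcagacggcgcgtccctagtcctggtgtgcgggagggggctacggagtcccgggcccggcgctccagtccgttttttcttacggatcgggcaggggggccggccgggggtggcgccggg
Wnt16, chr6:22287977-22288226, strand plus: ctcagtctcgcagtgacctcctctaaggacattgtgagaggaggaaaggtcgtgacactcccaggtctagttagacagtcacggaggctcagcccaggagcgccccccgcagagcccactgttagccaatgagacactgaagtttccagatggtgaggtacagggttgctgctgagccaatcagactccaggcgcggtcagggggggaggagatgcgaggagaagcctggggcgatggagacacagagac
Wnt11, chr7:98834862-98835111, strand plus: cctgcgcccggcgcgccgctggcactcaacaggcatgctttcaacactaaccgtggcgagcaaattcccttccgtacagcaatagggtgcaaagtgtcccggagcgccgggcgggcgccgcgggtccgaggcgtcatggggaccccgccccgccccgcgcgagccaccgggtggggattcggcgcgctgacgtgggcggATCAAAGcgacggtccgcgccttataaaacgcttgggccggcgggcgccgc
Of the windows of 300 bases (250 before and 50 after the start) that were found for 31 of the 48 members, 5 of 34 (14.7%) held such a core, against 16.9% of all 32851 windows of that length. Wnt11 had 2 windows, of which the one printed holds CTTTGAT on the minus strand and the other, at chr7:98838595-98838894, holds no core. Of the 12 members called with Pogz dosage in either tissue, 6 had a window and only Wnt11 held a core, in 1 of its 2 windows. TATAAA was found on either strand in 14.7% of the members' windows and 13.6% of all windows. The members' windows were richer in G and C, with a median of 67.2% against 52.7%. A match describes letters and shows no binding, and no match says only that these letters are not in the window.

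In control mice the leading ligands and receptors differed between the tissues. Compared per length of exon, as CPM per kb, the highest members of the cerebellum were Wnt7a at 30.7 ± 1.72 (SD, n = 6), the receptors Fzd1 at 21.2 ± 3.64 and Fzd7 at 18.02 ± 2.59, the R-spondin receptor Lgr4 at 17.1 ± 1.87 and the co-receptor Lrp6 at 9.33 ± 1.43. In the hippocampus the highest was Dkk3, a divergent Dickkopf family member, at 157 ± 21.3 CPM per kb, followed by the ligand Wnt7b at 13.4 ± 1.42, Lgr4 at 8.40 ± 1.02, Lrp6 at 8.26 ± 0.745 and Fzd3, a receptor known for axon guidance, at 8.01 ± 0.654. In the cerebellum Fzd1, Fzd7 and Lgr4 lay within their spread of each other, and in the hippocampus so did Lgr4, Lrp6 and Fzd3.

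**Figure D1:**
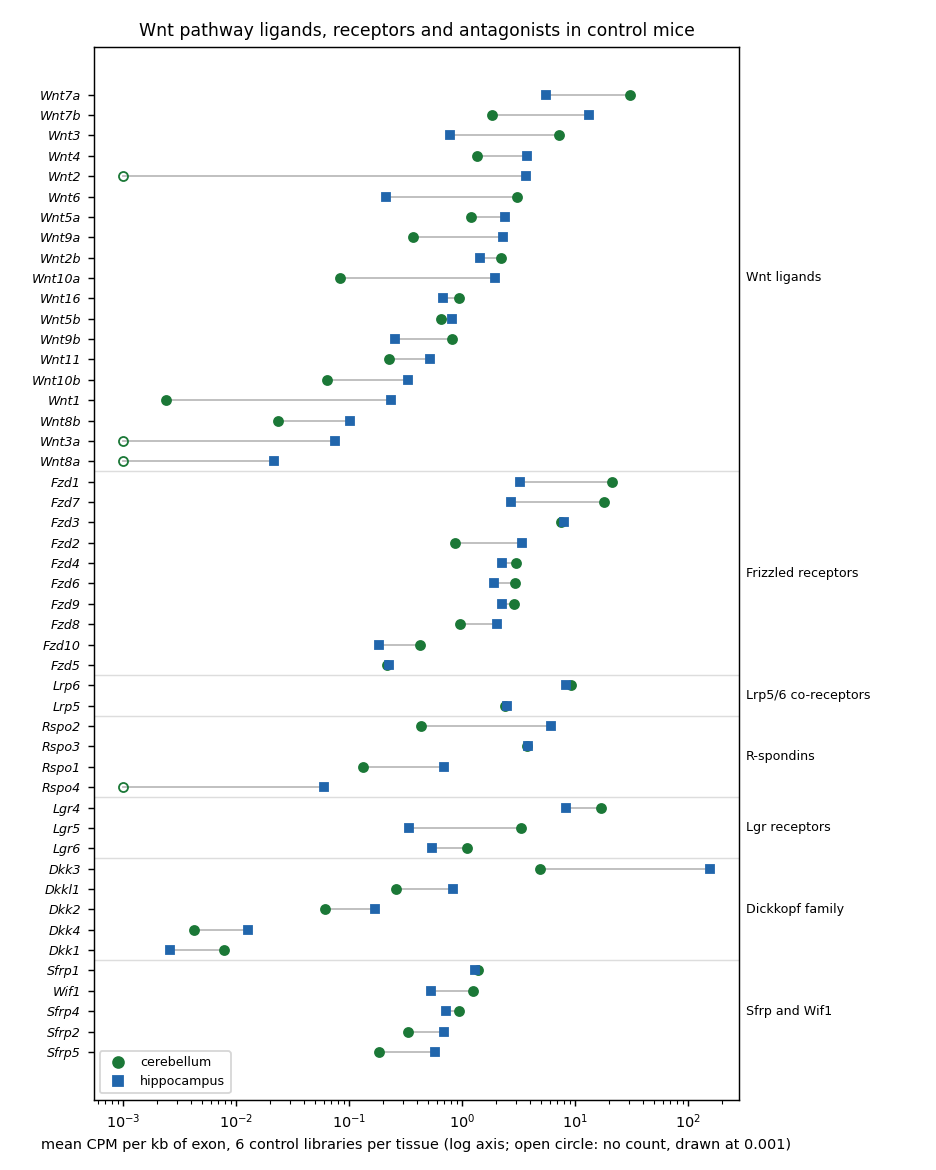
Mean level per length (CPM per kb of exon, log axis) of the 48 members in 6 control libraries of the cerebellum (circles) and the hippocampus (squares), ordered by family; open circles mark members with no count in any control cerebellar library, drawn at the left edge. Dkk3 of the hippocampus, at 157 CPM per kb, stands above every other member, and Lrp5, Lrp6, Fzd3, Fzd5, Rspo3 and Sfrp1 lie at nearly the same level in both tissues.

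Between the control tissues, 34 members had more than 1 CPM in at least 6 libraries and were tested with edgeR's quasi-likelihood test. Of these, 11 (32.4%) were higher and 13 (38.2%) lower in the hippocampus at a false discovery rate of 0.05, against 35.2% higher and 36.7% lower of all 14224 genes, so the share of members called was close to that of all genes. The median size of the difference was 1.15 on the log2 scale for members tested and 0.434 for all genes.

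Among ligands, 7 of 14 tested were higher in the hippocampus and 5 lower. Wnt2 had no count in any of the 6 control cerebellar libraries and 4.94 to 11.4 CPM (mean 7.83 ± 2.60) in the hippocampal ones, which is at least 76.6-fold higher when the cerebellum is set to 3 counts per library (edgeR adjusted p = 1.88e-08). Wnt10a was at 0.163 ± 0.150 CPM in the cerebellum and 3.81 ± 0.746 CPM in the hippocampus, a log2 difference of 4.54. Wnt7b, which acts in dendrite growth, was at 8.09 ± 1.88 and 59.3 ± 6.27 CPM, a log2 difference of 2.87. These 3 ligands did not overlap between the tissues in any control library. The same held for Wnt3, Wnt4, Wnt5a, Wnt6, Wnt7a, Wnt9a and Wnt9b, while the other ligands tested, Wnt2b, Wnt5b, Wnt11 and Wnt16, overlapped. The share of all genes without overlap between the tissues was not determined, so the lack of overlap shows no trait particular to the ligands. Wnt6 was lower in the hippocampus, at 6.35 ± 1.27 CPM in the cerebellum and 0.441 ± 0.278 CPM there (log2 difference -3.84). So was Wnt3, at 22.6 ± 1.70 and 2.46 ± 0.822 CPM (log2 difference -3.21). Wnt7a, the highest cerebellar ligand, was also lower in the hippocampus, by a log2 difference of -2.48. Wnt9a (2.64), Wnt4 (1.47), Wnt11 (1.19) and Wnt5a (0.98) were higher in the hippocampus, and Wnt9b (-1.68) and Wnt2b (-0.61) lower. Wnt5b and Wnt16 did not pass the test.

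Of 14 Frizzled, Lrp and Lgr receptors tested, 7 were lower and 2 higher in the hippocampus. Fzd7 was at 86.6 ± 12.5 CPM in the cerebellum and 13.1 ± 4.77 CPM in the hippocampus (log2 difference -2.76), and Fzd1 at 92.9 ± 15.9 and 14.4 ± 3.79 CPM (-2.71). Fzd6 (-0.62) and Fzd9 (-0.36) were lower in the hippocampus too, while Fzd2 (1.97) and Fzd8 (1.11) were higher there. All 3 Lgr receptors were lower in the hippocampus, most so Lgr5, a stem cell marker of other tissues, at 15.8 ± 2.08 CPM in the cerebellum and 1.60 ± 0.484 CPM in the hippocampus (-3.32). The co-receptors Lrp5 and Lrp6 and the receptors Fzd3, Fzd4 and Fzd5 did not pass the test, with log2 differences of -0.40 to 0.09.

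Of the secreted modulators, Rspo2 was at 1.46 ± 0.313 CPM in the cerebellum and 20.4 ± 5.14 CPM in the hippocampus (log2 difference 3.79), whereas Rspo3 was at 8.98 ± 1.62 and 9.28 ± 2.53 CPM, overlapping. Dkk3 was at 16.5 ± 3.27 and 528 ± 71.4 CPM (log2 difference 4.9995, edgeR adjusted p = 6.93e-13). Wif1 was lower in the hippocampus (-1.24, edgeR adjusted p = 0.0294), but the tissues overlapped, with 0.626 to 5.49 CPM in the cerebellum and 0.648 to 2.895 CPM in the hippocampus. Sfrp1 and Sfrp4 did not pass the test. Leaving out control Sample_1129 kept the count of 24 and moved the log2 difference of Wnt6 from -3.84 to -4.06. The same tissue comparison in the 6 cKO+/- animals, which share no library with the controls, called 30 members, 22 of them among the 24 of the controls, and in the 5 cKO-/- animals it called 19, of which 18 were among the 24. Most genes were called between the control tissues (35.2% higher and 36.7% lower), so this recurrence shows no trait particular to the members.

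The ligands of 4 gene pairs lie within 50 kb of each other in the genome, and they differed in whether both members of a pair went the same way. Wnt6 and Wnt10a on chromosome 1 are 6.7 kb apart on one strand, and Wnt6 had the largest negative log2 difference of the members, while Wnt10a was higher there. Wnt9b and Wnt3 on chromosome 11, 24.4 kb apart on opposite strands, were both lower in the hippocampus. Wnt3a and Wnt9a, 16.2 kb apart on chromosome 11, had no cerebellar count for Wnt3a and a higher hippocampal level for Wnt9a. Wnt10b and Wnt1 on chromosome 15, 11.7 kb apart, were too low for the test, with 25 and 1 counts in all control cerebellar libraries together and 167 and 122 counts in the hippocampal ones.

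Of all 48 members, 11 did not pass the filter for the fits within either tissue. These were Wnt1, Wnt3a, Wnt8a, Wnt8b, Wnt10b, Rspo4, Dkk1, Dkk2, Dkk4, Dkkl1 and Sfrp5, and none of the 48 was without a count in every library. A further 4 (Wnt2, Wnt10a, Wnt11 and Rspo1) were tested in the hippocampus alone, and Wnt6 and Fzd10 in the cerebellum alone, leaving 31 tested in both. The filter left the 11 low members out. With no filter on low counts, edgeR called Dkkl1 in the cerebellum (log2 fold change -0.68 per Pogz allele lost, adjusted p = 0.0479) and Wnt3a in the hippocampus (-0.96, adjusted p = 0.031), and none of the other 9 in either tissue. Both calls rest on few counts, at most 11 per control cerebellar library for Dkkl1 and 12 per control hippocampal library for Wnt3a.

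The loss of Pogz alleles was tested as an additive effect, with sex as a covariate, and values are log2 fold changes per allele lost. In the cerebellum 8 of the 33 members tested changed. Lgr6, Wnt5a, Rspo3, Wnt7b, Fzd2 and Sfrp4 rose with each lost allele, and Wif1 and Wnt2b fell. The 6 that rose are 18.2% of the members tested, against 7.11% of all 14027 genes, and the 2 that fell are 6.06%, against 6.55%. The median log2 change was 0.152 for members tested and 0.000867 for all genes. In all 8 the cKO+/- mean lay between the control and cKO-/- means. The additive test favours such genes among those it calls, so this is no separate support for a graded effect. The cKO+/- medians of Wnt2b and Fzd2 lay at the level of the control medians. For Lgr6 the cKO+/- median (4.27 CPM) lay below the control median (4.66 CPM).

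Lgr6, an R-spondin receptor on chr1:134986353-135105276, changed with the smallest adjusted p. Its level was 2.11 to 5.42 CPM in control cerebellum (median 4.66), 3.92 to 6.55 CPM in cKO+/- (median 4.27) and 9.33 to 14.4 CPM in cKO-/- (median 10.6). Every cKO-/- library was above every other library, while cKO+/- and control libraries overlapped, with group means of 4.13, 4.89 and 11.2 CPM. The per-allele log2 fold change was 0.74 (SE 0.111, edgeR adjusted p = 0.000322), and the ratio of cKO-/- to control was 2.78. The exact permutation test of cKO-/- against control gave p = 0.00216, two-sided, the smallest that it can give here. Of the other Lgr receptors, Lgr5 (0.12) and Lgr4 (0.00) did not pass the test.

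Rspo3, a ligand of Lgr receptors, was at 6.85 to 11.7 CPM in controls (median 9.31), 8.61 to 12.3 CPM in cKO+/- (median 11.3) and 10.8 to 15.4 CPM in cKO-/- (median 13.6). The groups overlapped, with the control library of Sample_1129 above the lowest cKO-/- library. This was a log2 fold change of 0.27 (SE 0.0587, edgeR adjusted p = 0.00712). Rspo2, the other R-spondin tested, had a log2 fold change of 0.05 and did not pass the test.

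Wnt5a, the prototype of β-catenin-independent ligands, was at 4.42 to 7.11 CPM in controls (median 5.18), 6.85 to 10.6 CPM in cKO+/- (median 7.72) and 8.24 to 13.8 CPM in cKO-/- (median 9.34). No cKO-/- library overlapped with a control, and cKO+/- libraries touched both groups. The log2 fold change was 0.46 (SE 0.0775, edgeR adjusted p = 0.00103), and the exact permutation p for cKO-/- against control was 0.00216.

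Wnt7b was at 6.34 to 11.7 CPM in controls (median 7.85), 7.65 to 11.8 CPM in cKO+/- (median 8.30) and 9.76 to 15.6 CPM in cKO-/- (median 14). The cKO+/- libraries resembled the controls, and 4 of 6 cKO-/- libraries lay above all others. With each allele Wnt7b rose by 0.34 on the log2 scale (SE 0.0811, edgeR adjusted p = 0.012). Exons of Wnt7b overlap those of AU022754 on the other strand, and the use of strand in counting was not given in the sources used here, so that reads of the 2 genes may not be told apart.

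Wnt2b was the only ligand that fell. It was at 7.05 to 11.1 CPM in controls (median 7.50), 6.80 to 7.63 CPM in cKO+/- (median 7.52) and 4.42 to 7.06 CPM in cKO-/- (median 6.14). The highest cKO-/- library lay at the level of the lowest control. The log2 fold change was -0.23 (SE 0.0623, edgeR adjusted p = 0.0227), and the call was lost on leaving out control Sample_1129 (log2 fold change -0.18) or either of cKO-/- Sample_1371 and Sample_1385. The other 8 ligands tested, Wnt3, Wnt4, Wnt5b, Wnt6, Wnt7a, Wnt9a, Wnt9b and Wnt16, had log2 fold changes of -0.12 to 0.22 and did not pass the test.

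Fzd2 was the only one of 10 Frizzled receptors to change. It was at 2.58 to 3.85 CPM in controls (median 3.44), 2.72 to 6.86 CPM in cKO+/- (median 3.43) and 3.44 to 8.13 CPM in cKO-/- (median 6.39). The cKO-/- Sample_1160 and Sample_1219, at 3.44 and 3.997 CPM, lay at the level of controls, and the other 4 lay at 6.24 to 8.13 CPM. Fzd2 rose by 0.45 on the log2 scale (SE 0.116, edgeR adjusted p = 0.0174), and it did not pass the test without cKO-/- Sample_1385. Fzd6 had a log2 fold change of 0.15 (edgeR adjusted p = 0.0631), and the co-receptors Lrp5 and Lrp6 were at 0.02 and 0.01.

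Among secreted antagonists, 1 of 4 tested in the Sfrp and Wif1 group rose and 1 fell. Sfrp4 was at 1.13 to 2.31 CPM in controls (median 1.63), 1.23 to 3.09 CPM in cKO+/- (median 2.47) and 1.83 to 5.68 CPM in cKO-/- (median 3.18). The groups overlapped, again with Sample_1160 the lowest of cKO-/-. Its log2 fold change was 0.49 (SE 0.128, edgeR adjusted p = 0.0178).

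Wif1, which binds Wnt ligands directly, moved the other way. It was at 0.644 to 5.64 CPM in controls (median 2.83), 0.544 to 3.35 CPM in cKO+/- (median 2.34) and 0.179 to 1.46 CPM in cKO-/- (median 0.6245). Of the controls, only Sample_1129, at 0.644 CPM, lay within the cKO-/- range. Wif1 fell by 0.94 on the log2 scale (SE 0.249, edgeR adjusted p = 0.0199), on 4 to 164 counts per library in these 2 groups. Dkk3, the only Dickkopf gene tested, was at 0.16 and did not pass the test.

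**Figure D2:**
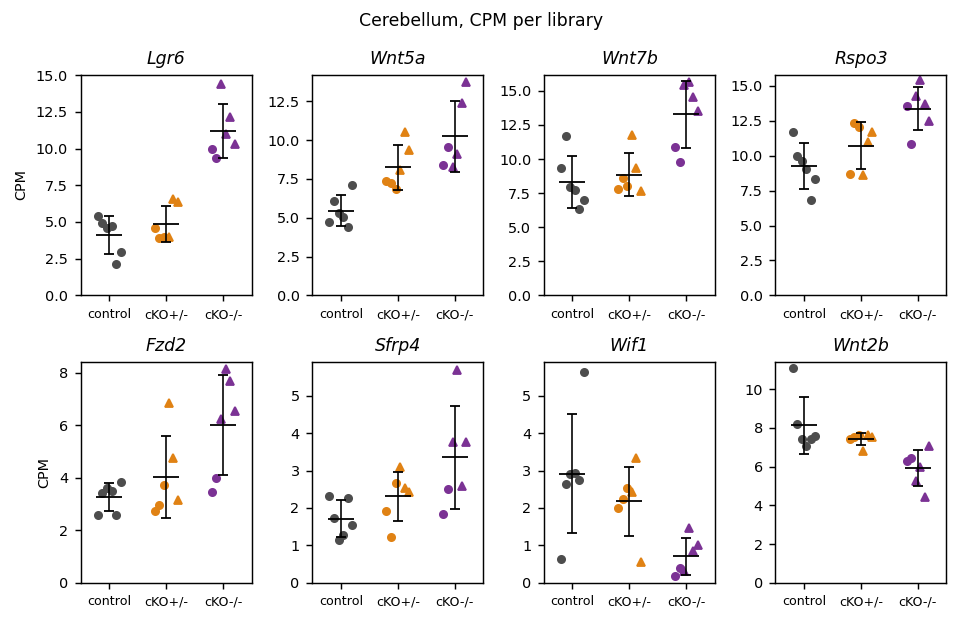
Level in CPM (linear axes from 0) of the 8 members that changed in the cerebellum, with 1 symbol per library in control, cKO+/- and cKO-/- mice (6 each), and the mean ± SD in black; triangles are animals numbered below Sample_1120 or above Sample_1219. The cKO-/- libraries of Lgr6 (9.33 to 14.4 CPM) and Wnt5a (8.24 to 13.8 CPM) lie above all controls, and the other 6 members overlap.

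Counted over all genes, 642 of 14027 (4.58%) had cKO-/- libraries all on one side of the controls in the cerebellum. Of the 33 members tested 2 did so, Lgr6 and Wnt5a.

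Markers of meninges and fibroblasts moved with genotype in the same cerebellar libraries. The 8 genes listed (Col1a1, Col1a2, Dcn, Lum, Slc6a13, Slc22a6, Igf2 and Fmod) were all tested, 5 of them rose and none fell. Their summed level was 229 to 312 CPM in controls (median 256), 297 to 464 CPM in cKO+/- (median 373) and 304 to 585 CPM in cKO-/- (median 551), and no defining marker was at 0 as a group mean. The lowest cKO-/- sums were those of Sample_1160 (304 CPM) and Sample_1219 (370 CPM), which were also the lowest cKO-/- animals for Fzd2, Wnt7b and Sfrp4. The same animals had the highest cKO-/- sums of granule cell markers in the cerebellum, at 6770 and 6267 CPM. They were also the only cKO-/- animals numbered from Sample_1120 to Sample_1219. The match is therefore not particular to meningeal markers, and the part of the meningeal markers in the members' changes was not tested. The log2 of the meningeal sum was used as a covariate, an alternative added after the data were seen. None of the 8 members then kept its call in the edgeR fit, and 9 of 33 members had an unadjusted p under 0.05. Of all genes, 141 were called. Lgr6 then had a log2 fold change of 0.67 (edgeR adjusted p = 0.125), Wnt5a 0.21 (adjusted p = 0.387) and Fzd2 -0.10 (adjusted p = 0.748). The covariate and the genotype overlap strongly in these libraries.

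The controls' animal numbers ran from Sample_1129 to Sample_1192, whereas 3 cKO+/- and 4 cKO-/- animals were numbered below Sample_1120 or above Sample_1219, and what the numbers stand for was not given in the sources used here. With a covariate marking these 7 animals, Lgr6 (0.65, edgeR adjusted p = 0.00878) and Wnt5a (0.34, adjusted p = 0.026) kept their calls and the other 6 lost theirs. No control was among these 7 animals, so the covariate and the genotype overlap in part, and their effects cannot be fully told apart. Without the 3 cerebellar libraries rich in choroid plexus markers all 8 were still called. None of the 5 choroid plexus markers tested in the cerebellum was called by edgeR, with 1 at an unadjusted p under 0.05 and 1 called by DESeq2. Bergmann glia and astrocyte markers (3 of 6 higher) and microglial markers (3 of 6 higher) also moved with genotype. On other lists a few genes were higher: 2 of 3 tested for neocortex, 2 of 5 for CA1 to CA3, and 1 of 3 each for dentate gyrus and brainstem. For oligodendrocytes 1 of 6 was higher and for endothelium 1 of 6 was lower. Over all genes 7.11% rose and 6.55% fell, and calls of 1 or 2 genes do not show that a cell type changed. The part of all these lists in the members' changes was not tested.

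The cerebellar libraries also differed in granule cell markers, whose 6 genes summed to 5532 to 6387 CPM in controls (median 6080), 3721 to 7020 CPM in cKO+/- (median 5940) and 3258 to 6770 CPM in cKO-/- (median 4861). The sum was under 5000 CPM in cKO-/- Sample_1371, Sample_1379 and Sample_1385 and in cKO+/- Sample_1433. Without these 4 libraries, an alternative added after the data were seen, 2 of the 33 members were called, Wnt5a (0.48, edgeR adjusted p = 0.00632) and Lgr6 (0.62, adjusted p = 0.0115), and 538 genes of all. The other 6 kept their sign, with log2 fold changes of 0.21 for Fzd2, 0.19 for Wnt7b, 0.22 for Rspo3, 0.29 for Sfrp4, -0.14 for Wnt2b and -1.05 for Wif1 and edgeR adjusted p of 0.0635 to 0.213. This fit held 3 cKO-/- libraries, and the part of the granule cell markers in the members' changes was not tested.

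**Figure D3:**
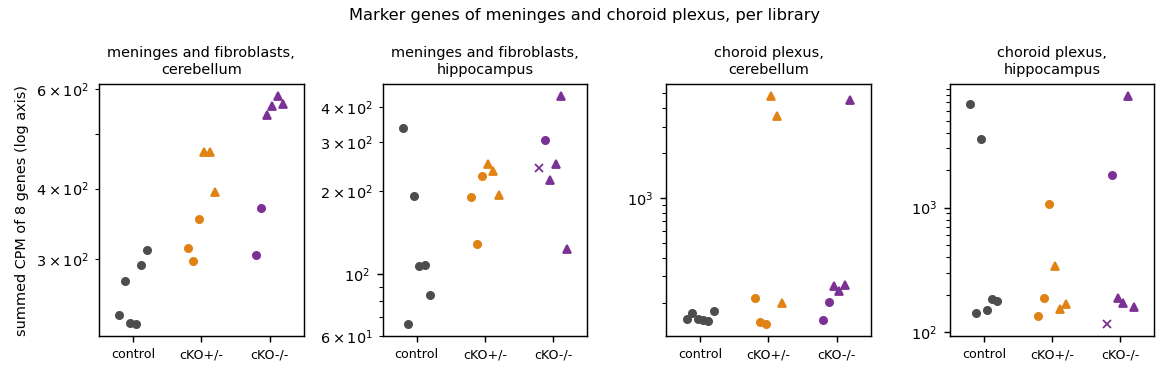
Summed CPM (log axes) of 8 marker genes of meninges and fibroblasts and 8 of the choroid plexus in each library, by tissue and genotype; triangles are animals numbered below Sample_1120 or above Sample_1219, and the cross is the hippocampal library of Sample_1160. Cerebellar meningeal sums run from 229 to 312 CPM in controls and from 304 to 585 CPM in cKO-/-, and choroid plexus sums exceed 1000 CPM in 3 cerebellar and 5 hippocampal libraries.

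In the hippocampus 4 of the 35 members tested changed with Pogz dosage, and all 4 fell. They were the agonist Rspo1, the ligands Wnt16 and Wnt11, and Dkk3. They are 11.4% of the members tested, against 2.35% of all 14339 genes that fell, and no member rose by edgeR (4 at an unadjusted p under 0.05, 1 called by DESeq2), against 2.09% of all genes. No cKO-/- library of Rspo1 or Wnt16 was above 1 CPM. These 2 members thus passed the filter through control and cKO+/- libraries alone. The share of 11.4%, their tests and their lack of overlap are therefore not independent of the filter. The median log2 change was 0.000273 for members tested and 0.00171 for all genes. In all 4 the cKO+/- mean lay between the other 2 means, which the additive test again favours in the genes it calls.

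Rspo1 was at 0.872 to 1.69 CPM in controls (median 1.17), 0.768 to 1.59 CPM in cKO+/- (median 0.920) and 0.406 to 0.692 CPM in 5 cKO-/- libraries (median 0.565), with Sample_1160 at 0.667 CPM. Every cKO-/- library was below every control and every cKO+/- library. The log2 fold change was -0.51 (SE 0.116, edgeR adjusted p = 0.0168), on 9 to 65 counts per library in these 2 groups, and the exact permutation p of cKO-/- against control was 0.00216, the smallest possible.

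Wnt16 was at 0.832 to 1.41 CPM in controls (median 1.13), 0.4997 to 1.38 CPM in cKO+/- (median 0.835) and 0.363 to 0.632 CPM in cKO-/- (median 0.488), with Sample_1160 at 0.180 CPM. Control and cKO-/- libraries did not overlap, while the cKO+/- libraries spanned both. Wnt16 fell by 0.52 on the log2 scale (SE 0.136, edgeR adjusted p = 0.0364), with an exact permutation p of 0.00216 for cKO-/- against control. In the cerebellum Wnt16 was at 0.896 to 2.42 CPM in controls and 1.57 to 2.55 CPM in cKO-/-, with a log2 fold change of 0.16 that did not pass the test.

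Wnt11, a ligand of cell polarity signalling, was at 1.03 to 2.19 CPM in controls (median 1.66), 0.605 to 1.41 CPM in cKO+/- (median 1.05) and 0.525 to 1.30 CPM in cKO-/- (median 0.9), with Sample_1160 at 1.46 CPM. The groups overlapped, and the cKO+/- libraries already lay near the cKO-/- range. The log2 fold change was -0.41 (SE 0.115, edgeR adjusted p = 0.0489).

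Dkk3, the highest member of the hippocampus, was at 398 to 588 CPM in controls (median 514), 396 to 515 CPM in cKO+/- (median 443) and 374 to 466 CPM in cKO-/- (median 423), with Sample_1160 at 364 CPM. The ranges overlapped through control Sample_1129, at 398 CPM, whose library was one of those rich in choroid plexus markers. Dkk3 fell by 0.15 on the log2 scale (SE 0.0421, edgeR adjusted p = 0.0461), the smallest of the 4.

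**Figure D4:**
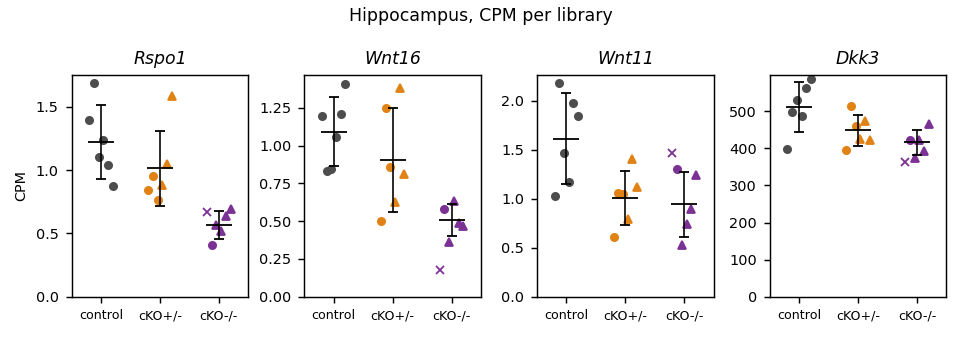
Level in CPM (linear axes from 0) of the 4 members that fell in the hippocampus, with 1 symbol per library, the mean ± SD in black (without Sample_1160, drawn as a cross) and triangles for animals numbered below Sample_1120 or above Sample_1219. Rspo1 (0.406 to 0.692 CPM) and Wnt16 (0.363 to 0.632 CPM) of cKO-/- lie below all controls, and Wnt11 and Dkk3 overlap.

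The hippocampal calls depended on which libraries entered the fit. With Sample_1160 included, Rspo1 and Wnt16 were still called, and Wnt11 (edgeR adjusted p = 0.252) and Dkk3 (adjusted p = 0.0639) were not. Without the 5 libraries rich in choroid plexus markers (Sample_1129, Sample_1170, Sample_1189, Sample_1219 and Sample_1385), none was called, with log2 fold changes of -0.54 for Wnt16, -0.53 for Wnt11, -0.46 for Rspo1 and -0.17 for Dkk3 and edgeR adjusted p of 0.119 to 0.225, and 9 of 35 members had an unadjusted p under 0.05. Of 6 choroid plexus markers tested, none was called with genotype by edgeR or DESeq2, and none had an unadjusted p under 0.05. The meningeal sum was 66.0 to 336 CPM in controls (median 108) and 124 to 440 CPM in cKO-/- (median 250), 1 of its 8 genes rose, and its part in the members' changes was not tested. Markers of the dentate gyrus summed to 427 to 720 CPM in controls (median 581), 289 to 529 CPM in cKO+/- (median 437) and 365 to 458 CPM in cKO-/- (median 412), with 2 of 6 genes lower and 1 higher. Among the other lists, 1 of 6 CA1 to CA3 and 1 of 8 thalamus and habenula markers were lower, and 2 of 6 endothelial and 2 of 6 astrocyte markers higher, and the part of all these was not tested. With the log2 of the meningeal sum as a covariate the 4 log2 fold changes ran from -0.54 to -0.09 and none was called by edgeR, while 6 of 35 members had an unadjusted p under 0.05. With the animal number covariate, Rspo1 alone kept its call (-0.74, edgeR adjusted p = 0.0131). On leaving out 1 library at a time, Rspo1 was lost without Sample_1155 or Sample_1379, and Wnt16, Wnt11 and Dkk3 were lost in 9, 12 and 12 of 17 fits. Without Sample_1379 none was called by edgeR, and 6 members had an unadjusted p under 0.05.

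Over all genes, 524 of 14339 (3.65%) had cKO-/- libraries all on one side of the controls in the hippocampus, and 2 of 35 members did, Rspo1 and Wnt16, with or without Sample_1160. As both passed the filter through control and cKO+/- libraries alone, this count is not independent of the filter. The other 31 members tested, among them the 9 Frizzled, 3 Lgr and 2 Lrp receptors that passed the filter, did not pass the test, with Sfrp4 the nearest at a log2 fold change of 0.35 (edgeR adjusted p = 0.0546).

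No member was called in both tissues, which alone does not show that the tissues differ. The difference of the allele effect between tissues was therefore tested in one fit of 35 libraries, in which 38 members passed the filter. For 4 members (10.5%) the effect was lower in the hippocampus, against 1.36% of all 14852 genes, and for no member was it higher by edgeR (1 at an unadjusted p under 0.05, 0 called by DESeq2), against 0.29%. Wnt2, among these 4, had at most 4 counts in any cerebellar library. It thus passed the filter through hippocampal libraries alone, and the share of 10.5% is not independent of the filter.

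Lgr6 differed most clearly, with a log2 difference in allele effect (hippocampus minus cerebellum) of -0.92 (SE 0.151, edgeR adjusted p = 0.000648). Its hippocampal level was 1.78 to 2.07 CPM in controls (median 1.93), 1.53 to 2.58 CPM in cKO+/- (median 1.89) and 1.20 to 2.08 CPM in cKO-/- (median 1.32), overlapping. Fzd2 differed by -0.60 (SE 0.137, adjusted p = 0.0172). In the hippocampus it was at 9.05 to 14.1 CPM in controls (median 11.8), 7.89 to 11.1 CPM in cKO+/- (median 10.2) and 7.87 to 11.99 CPM in cKO-/- (median 9.54), overlapping.

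Wnt7b differed by -0.41 (SE 0.103, edgeR adjusted p = 0.0297), with hippocampal levels of 47.9 to 66.1 CPM in controls (median 58.4), 53.6 to 69.2 CPM in cKO+/- (median 62.0) and 41.3 to 65.0 CPM in cKO-/- (median 50.8). Wnt2 was called too (-1.82, SE 0.484, edgeR adjusted p = 0.0444), but it had at most 4 counts in any cerebellar library and none in the controls, so the fitted value depends on the prior count. In the hippocampus Wnt2 was at 4.78 to 11.0 CPM in controls (median 7.06), 3.76 to 8.41 CPM in cKO+/- (median 6.42) and 4.40 to 8.20 CPM in cKO-/- (median 5.36), and it did not pass the test there.

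With the animal as a replicate block, Lgr6 (-0.95, edgeR adjusted p = 0.00926) and Fzd2 (-0.62, adjusted p = 0.0381) kept their calls, and Wnt7b (adjusted p = 0.0765) and Wnt2 (adjusted p = 0.0644) lost theirs. With the animal number covariate no member was called by edgeR, with an adjusted p of 0.167 for Lgr6, and 6 of 38 had an unadjusted p under 0.05. The difference was not called for Wnt5a (-0.37, adjusted p = 0.0806), Rspo3 (-0.04), Sfrp4 (-0.15), Wif1 (0.71), Wnt2b (0.14), Rspo1 (-0.78, adjusted p = 0.0912), Wnt16 (-0.69, adjusted p = 0.0877), Wnt11 (-0.39) or Dkk3 (-0.32), so for these 9 members an effect in one tissue only was not shown.

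**Figure D5:**
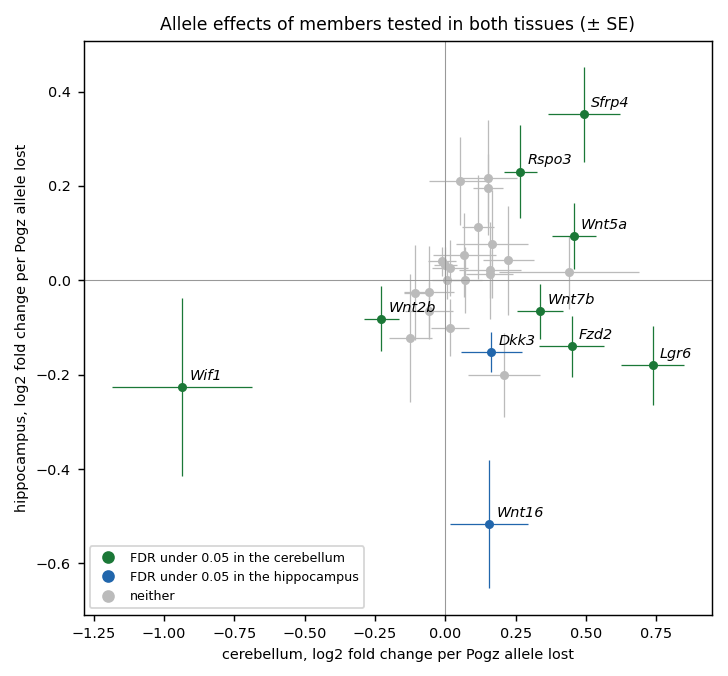
Log2 fold change per Pogz allele lost in the cerebellum (x axis) and the hippocampus (y axis) for the 31 members tested in both tissues, with SE bars; green points were called in the cerebellum, blue points in the hippocampus and grey points in neither. Sfrp4, Rspo3, Wnt5a, Wif1 and Wnt2b have the same sign in both tissues, and Lgr6 (0.74 and -0.18), Fzd2 (0.45 and -0.14) and Wnt7b (0.34 and -0.07) have opposite signs. So do Wnt16 (0.16 and -0.52) and Dkk3 (0.16 and -0.15), called in the hippocampus.

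Other genes of the pathway were followed in 6 lists of 76 genes. In the cerebellum 8 of the 71 tested rose and 3 fell with Pogz dosage, against 7.11% and 6.55% of all genes. In the hippocampus 1 of 72 rose and 3 fell, against 2.09% and 2.35% of all genes. The median log2 change of the genes tested was 0.0241 in the cerebellum and -0.00322 in the hippocampus. The difference of the allele effect between tissues was called for none of 74 by edgeR, with 11 at an unadjusted p under 0.05 and 2 called by DESeq2.

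In the Wnt secretion list of 4 genes, 1 rose and 1 fell in the cerebellum. Wls, which carries Wnt ligands to the cell surface, was at 40.2 to 57.2 CPM in controls (median 52.9) and 62.8 to 103 CPM in cKO-/- (median 79.0), and rose by 0.32 on the log2 scale per allele lost (SE 0.0571, edgeR adjusted p = 0.00146). Notum, which removes the lipid of Wnt ligands, had -0.26 (SE 0.0736, adjusted p = 0.0288), from 3.22 to 6.47 CPM in controls to 2.65 to 3.63 CPM in cKO-/-. Among 16 other surface receptors and binding proteins tested, 3 rose, Tspan12 most clearly, a partner of Fzd4 in norrin signalling of vessels. Tspan12 was at 15.1 to 16.5 CPM in control cerebellum (median 15.6), 16.4 to 22.1 CPM in cKO+/- (median 19.1) and 20.3 to 27.1 CPM in cKO-/- (median 25.6), with a log2 fold change of 0.32 (edgeR adjusted p = 4.95e-05). It also rose in the hippocampus, by a log2 fold change of 0.14 (adjusted p = 0.0388).

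Of 5 other secreted regulators tested in the cerebellum, the antagonist Frzb rose (0.36, edgeR adjusted p = 0.00872). Among 20 genes of the destruction complex and transduction 1 rose and 2 fell, with Dvl1, which relays the Frizzled signal, at -0.24 (adjusted p = 0.0238) and Daam2 at -0.20 (adjusted p = 0.0229). None of 13 nuclear partners, TCF/LEF genes among them, was called in either tissue by edgeR or DESeq2, with 3 at an unadjusted p under 0.05 in the cerebellum and 1 in the hippocampus. Of 13 targets and feedback genes 2 rose in the cerebellum, Nkd1 (0.16) and Tnfrsf19 (0.23), named after their values were seen, and the widely used target Axin2 was not called (0.04, edgeR adjusted p = 0.613). In the hippocampus the 3 that fell were Igfbp4 (-0.23, adjusted p = 0.0212), Ror1, a receptor of Wnt5a (-0.30, adjusted p = 0.0333), and Ccnd1 (-0.14, adjusted p = 0.0461).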

How the data were processed

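RNA of the cerebellum and hippocampus was sequenced from poly(A)-selected libraries. The authors deposited raw read counts per gene, 1 table per tissue with exon coordinates and the gene length in bases. Their notes name STAR (250a) and mm9, whereas the deposited coordinates match GRCm38, so the mm9 genome was not used here and coordinates are those of the files. The counter and its use of strand were not given in the sources used here. The same animal numbers head the columns of both tables, and the tissue was taken from the table.

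The filter kept genes with more than 1 CPM in 6 or more libraries, and library sizes and TMM factors were computed over them. The deposited counts were tested with edgeR 4.0.16 (R 4.3.3; quasi-likelihood F-test, legacy setting, Benjamini-Hochberg adjustment over all genes tested, threshold 0.05). Within a tissue the model held sex and the number of lost alleles (0, 1 or 2). The tissue contrast used 12 control libraries with sex, and the difference of allele effects used 35 libraries with tissue terms for sex and alleles. The study excluded an outlier sample that its methods do not name. The hippocampal library of Sample_1160 was taken to be it, as in earlier work on these data, and left out of the fits, while filter and TMM factors within the hippocampus used all 18. CPM use the TMM-scaled library size, per tissue or, for the tissue contrast, over both. The exact permutation test compared mean log2(CPM + 0.1), two-sided. Precision is limited by 6 animals a group. Scripts were tested on simulated data.

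All 48 members are listed as passing or not, those called are given by library, and the 5 largest tissue differences each way and the 5 highest members per tissue by means. Of the other pathway genes, the 3 smallest adjusted p in each direction are named. The animals of both tissues were the same by their numbers: their deviations from the group means correlated between tissues with a median of 0.217, over 0.1 in 15 of 17 animals. Alternatives were DESeq2 1.42.0, other scaling, no filter, other covariates, the animal as a block and libraries left out. The members and lists were chosen with earlier results of these data known.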

Additional observations from a re-analysis of the deposited data

Results flagged for a closer look

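In 76 groups of 5 or 6 libraries for 13 members, the highest or lowest library stood apart from the rest by Dixon's criterion in 6, and chance gives about 1 in 20. Dkk3 in control cerebellum was at 23.6 CPM in Sample_1192, with the next library at 16.5 CPM. Lgr6 in cKO-/- hippocampus was at 2.08 CPM in Sample_936 (next 1.39), Rspo1 in cKO+/- hippocampus at 1.59 CPM in Sample_938 (next 1.05) and Wif1 in control hippocampus at 2.81 CPM in Sample_1172 (next 1.07). Wnt2b in the cerebellum stood apart at 11.1 CPM in control Sample_1129 (next 8.18) and at 6.80 CPM in cKO+/- Sample_1433 (next 7.40).

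The allele effect differed between hippocampus and cerebellum by edgeR's test of the difference for Lgr6 (-0.92), Fzd2 (-0.60), Wnt7b (-0.41) and Wnt2 (-1.82, on at most 4 cerebellar counts per library).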

How the results depend on the processing

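Alternatives other than leaving out an animal were scored on counts of members called or of members not overlapping. In 27 of 40 these counts kept within 1.5 times their value. Among these 27 were DESeq2, relative log expression factors and no filter on low counts in every comparison. In the cerebellum the count of 8 fell to 2 with a covariate marking numbers below Sample_1120 or above Sample_1219, to 2 without the 4 libraries low in granule cell markers, and to 0 with the meningeal marker sum as a covariate, under which Fzd2 reversed to -0.10. In the hippocampus the count of 4 fell to 2 with no sex term, with genotype as a factor and with all 18 libraries, to 1 with the animal number covariate, and to 0 without the libraries rich in choroid plexus markers and with the meningeal sum. For the tissue difference of the allele effect, the count of 4 fell to 2 with all 36 libraries and with the animal as replicate block, and to 0 with the animal number covariate. The block left the tissue contrast at 24. Members not overlapping in the hippocampus rose from 2 to 5 without the choroid-rich libraries, where groups are smaller. The other causes were not tested. The marker-based alternatives were chosen after seeing the data.

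With each animal left out in turn, the count was 6 (without Sample_1385) to 9 in the cerebellum, 0 (without Sample_1379) to 4 in the hippocampus, 22 to 26 between tissues and 1 (without Sample_1190) to 4 for the difference of effects. Members not overlapping were 2 to 4 in the cerebellum (4 without Sample_1129) and 2 to 3 in the hippocampus. Of single members, Lgr6, Wnt5a, Rspo3, Wnt7b, Sfrp4 and Wif1 were called in all 18 cerebellar fits, and Lgr6 in all 18 fits of the difference between tissues, where Fzd2 was lost in 3, Wnt7b in 7 and Wnt2 in 12. Depth limits the members under 1 CPM, which were not tested.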
